A study of Mus musculus with 6 samples.

Results

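Solute carrier genes encode membrane proteins that move sugars, amino acids, nucleosides, metals, ions and other small molecules into cells and organelles. The genes described here are those whose symbols begin with Slc and a digit, and 289 of the 15483 genes listed matched. They were measured by RNA-seq in 6 libraries of mouse bone marrow cells sorted with a gate for regulatory T cells (Tregs), the CD4 T cells that depend on the transcription factor Foxp3 and restrain immune responses. All mice were wild type, and in both groups the gate for Tregs was CD3 and CD4 and Foxp3 positive and NK1.1 negative. Transcripts of granulocytes far outweighed those of T cells in every library, as the marker values below show, so only the gate is known and the samples are called libraries of the Treg gate. The control group had 3 libraries from control mice, and the irradiated group had 3 libraries from mice 3 months after irradiation. The labels give no dose or type of irradiation and no age or sex. They do not say whether mice were pooled or whether replicates are separate mice, so every p-value reflects spread between libraries that could be technical only.

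Carriers fall into families that share a fold and often a substrate. Facilitative glucose carriers (Slc2) let activated lymphocytes and granulocytes take up glucose, and monocarboxylate carriers (Slc16) release the lactate that glycolysis makes. Amino acid carriers feed protein synthesis and the nutrient sensor mTORC1, mitochondrial carriers (Slc25) exchange nucleotides, phosphate and metabolites across the inner membrane, and Slc30 and Slc39 proteins move zinc out of and into the cytosol. Iron leaves cells through ferroportin (Slc40a1), and macrophages that recycle red cells are known for it.

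Values are FPKM, which divide the fragments of a gene by its transcript length and by the size of the library, so levels of different genes are compared per length. Column totals were between 451444 and 485365 FPKM, and the Slc genes together made up between 0.567% and 0.616% of them. Absolute depth is unknown. Depth relative to control replicate 1, estimated from low genes of which 128 to 209 of 225 to 341 per library met the rule, was 98.45% and 102.85% in the other control libraries and 81.6% to 92.65% in the irradiated ones. All 16 T cell core markers and all 14 Treg markers were detected in every library, but their summed level was only 615 to 636 and 339 to 344 FPKM in control libraries, against 70048 to 75224 FPKM for 21 neutrophil and granulocyte markers. Between the groups 14 of 16 tested T cell core markers and 10 of 14 Treg markers fell, and 16 of 21 neutrophil and granulocyte markers and 7 of 9 basophil and mast cell markers rose. In addition 18 of 19 monocyte and macrophage, 7 of 9 eosinophil, 10 of 11 dendritic cell, 11 of 11 B cell, 8 of 12 NK and cytotoxic and 7 of 16 erythroid markers fell. Of 9 tested plasma cell markers 4 rose and 1 fell. The summed level of the 10 listed went from 262 to 277 FPKM to 575 to 606 FPKM. In such libraries fewer cells of a type and less RNA per cell cannot be told apart.

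About as large a share of carriers as of all genes changed, and the log2 differences furthest from 0 were those of the vesicular nucleotide carrier Slc17a9, which rose, and the sugar carrier family member Slc45a3, which fell. Of the 289 Slc genes, 180 averaged 1 FPKM or more across the libraries and were tested, 175 of them with that mean in both groups. Differences are irradiated minus control on log2(FPKM + 1), which understates the change of low genes, and a gene is said to have risen or fallen where limma's test gave a Benjamini-Hochberg adjusted p under 0.05 over all 10666 genes tested. By this rule 11 Slc genes rose and 18 fell, 16.1% of those tested, against 16.6% of all tested genes (671 higher, 6.29%, and 1100 lower, 10.3%). The share called was thus near the background. The median log2 difference was -0.00 over the tested Slc genes and -0.02 over all tested genes, and no tested Slc gene passed a difference of 1 on this scale in either direction. Of the 29 called Slc genes 26 averaged 1 FPKM or more in both groups, while Slc6a9, Slc16a9 and Slc45a3 did so only in the group where they were higher. With a pseudocount of 0.1 the differences of Slc45a3, Slc16a9, Slc6a9 and Slc28a2b became -1.39, -1.26, 0.97 and 0.88. In all 29 called Slc genes the 3 irradiated values lay beyond the 3 control values, which selection by a low p makes likely, so it adds no support. Over all tested Slc genes, called or not, the groups stood apart in 37.2%, against 33.6% of all tested genes. With quantile normalization the Slc genes split into 17 higher and 16 lower, and all tested genes into 836 higher and 969 lower. With no filter on low values 11 of the 289 Slc genes rose and 17 fell, and 9.14% of all 15483 genes were called. Without control replicate 1 there were 6 Slc genes higher and 14 lower (456 and 745 over all genes). Without control replicate 2 there were 8 and 10 (414 and 709 over all genes). With a minimum mean of 5 FPKM there were 10 and 11 (634 and 893 over all genes).

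**Figure D1:**
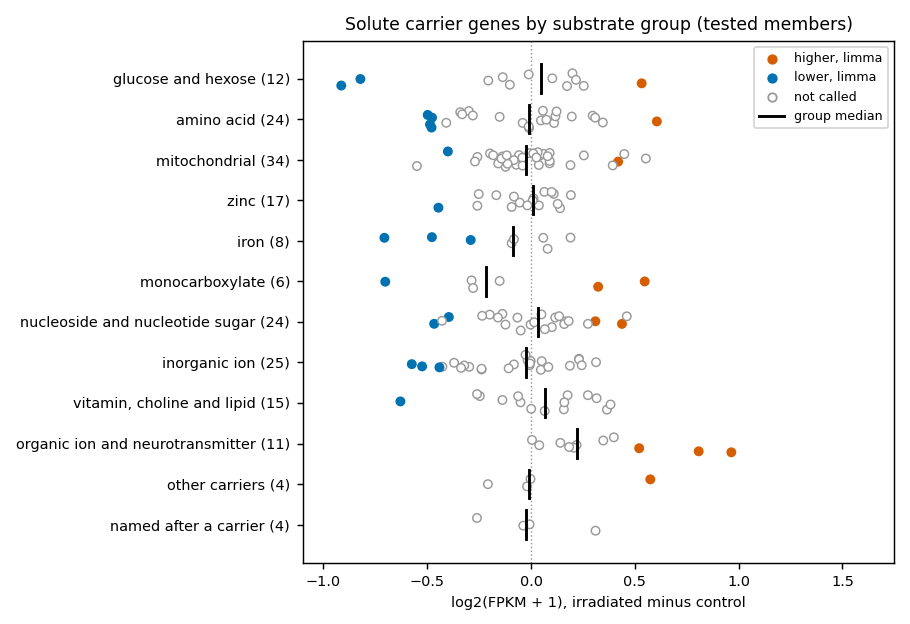
Log2(FPKM + 1) difference, irradiated minus control, on the x axis for every tested Slc gene (1 point each, spread vertically at random) by substrate group, with the number tested in brackets and the group median as a bar. 4 genes stand in 2 groups, and group medians run from -0.22 (monocarboxylate) to 0.22 (organic ion and neurotransmitter), while called genes reach from -0.91 to 0.96.

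**Figure D2:**
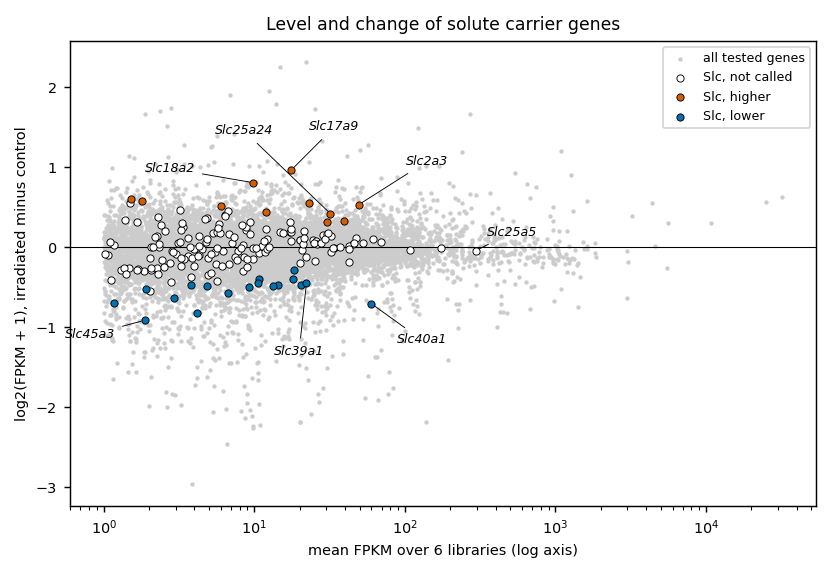
Mean FPKM over the 6 libraries on a log x axis against the log2(FPKM + 1) difference on the y axis, with all 10666 tested genes in grey and the 180 tested Slc genes outlined. Slc genes lie within the cloud of other genes, between -0.91 (Slc45a3) and 0.96 (Slc17a9), and Slc25a5, the most abundant, is at -0.04.

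Among glucose and hexose carriers the most abundant one rose and 2 sparse ones fell. Of 17 listed, 12 were tested, 1 rose and 2 fell (25% called, against 16.6% of all tested genes), and their median was 0.05. Slc2a3 (GLUT3, a high-affinity glucose carrier; GRCm38 chromosome 6, 122727809 to 122801640) stood at 38.5, 41.4 and 40.7 FPKM in control replicates 1, 2 and 3 and at 59.9, 57.4 and 58.5 FPKM in irradiated replicates 1, 2 and 3. All irradiated values were above all control values, with a log2 difference of 0.53 ± 0.06 (SE, n = 3 and 3, limma adjusted p = 0.000107). Slc2a1 (GLUT1, the glucose carrier that T cells induce on activation) stood at 12.8, 13.9 and 16.9 in the control and 17.3, 15.6 and 16.3 FPKM in the irradiated libraries. These values overlapped, and the difference of 0.17 ± 0.11 did not pass (adjusted p = 0.314). Slc2a6, a glucose carrier family member of lysosomes, was at 20.01 ± 2.27 FPKM (SD, n = 3) and 23.1 ± 1.28 FPKM, and Slc50a1, a sugar carrier of the SWEET family, at 28.3 ± 2.88 and 30.4 ± 1.505 FPKM, and neither passed (adjusted p = 0.181 and 0.465).

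The falls were in carriers of low level. Slc37a2, a sugar phosphate exchanger of the endoplasmic reticulum that macrophages express, was at 6.37, 5.63 and 4.86 in the control and 3.39, 1.94 and 3.01 FPKM in the irradiated libraries, without overlap (log2 difference -0.82 ± 0.17, adjusted p = 0.00678). Slc45a3, of a family of proton-coupled sugar carriers, was at 3.11, 2.99 and 2.16 in the control and 1.09, 0.979 and 0.874 FPKM in the irradiated libraries. Its log2 difference of -0.91 ± 0.16 was the largest fall of any tested Slc gene on this scale (adjusted p = 0.00248). It averaged over 1 FPKM only in the control group, so it passed the filter through the group where it was high, and 13.5% of its exon bases are shared with another gene model on the same strand. Markers of monocytes and macrophages fell in the same libraries, from a summed 2379 to 2560 FPKM to 1540 to 1600 FPKM with only Marco of 20 at 0 in any library, and their part in these falls was not tested.

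Of 6 tested monocarboxylate carriers 2 rose and 1 fell (50% called, against 16.6% of all tested genes). Of the lactate carriers among them Slc16a3 rose and Slc16a1 did not pass. Slc16a3 (MCT4, which exports lactate) was at 37.5, 33.8 and 33.7 in the control and 45.5, 42.8 and 43.6 FPKM in the irradiated libraries, all higher (log2 difference 0.32 ± 0.07, adjusted p = 0.00751). Slc16a6 (MCT7, which carries ketone bodies) rose from 18.7 ± 2.55 to 27.6 ± 1.91 FPKM (0.55 ± 0.10, adjusted p = 0.00322), and 21.5% of its exon bases are shared with Amz2 on the other strand, so its value is uncertain where counting ignored strand. Slc16a1 (MCT1, a lactate carrier that works in either direction) was at 10.4 ± 0.823 and 9.25 ± 0.637 FPKM and did not pass (-0.15 ± 0.10, adjusted p = 0.371). Slc16a9, a creatine and carnitine carrier, was near the floor at 1.70 ± 0.506 and 0.652 ± 0.230 FPKM (-0.70 ± 0.19, adjusted p = 0.0276). It passed the filter through the control group only. Its call was lost with no filter, with quantile normalization, with the replicate number as a block, and without control replicate 2 or irradiated replicate 2 or 3, at adjusted p up to 0.0851.

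Of 21 genes of glycolysis and lactate handling 9 rose and 1 fell (47.6% called, against 16.6% of all tested genes), with a median of 0.19. Their median level was 47.5 FPKM and their median SE 0.061, against 11.5 FPKM and 0.112 over all tested genes. Smaller differences can thus pass among them. Hk3, a hexokinase of myeloid cells, rose by 0.45 ± 0.05, Pfkfb4, which sets the rate of glycolysis through fructose bisphosphate, by 0.48 ± 0.08, and Ldha, which makes lactate, by 0.21 ± 0.06, while Hif1a, a transcription factor that induces glucose uptake, changed by -0.37 ± 0.07. The list was written with earlier results of these libraries known. Neutrophil and granulocyte markers rose in the libraries in which Slc2a3, Slc16a3 and these enzymes rose, from a summed 70048 to 75224 FPKM to 102268 to 105243 FPKM with 0 of 21 at 0 in any library, and their part in these rises was not tested.

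The 2 amino acid carriers with the highest mean levels, Slc1a5 and Slc38a2, did not pass the test, while Slc15a3, at a mean of 20.5 FPKM, fell. Of 47 listed 24 were tested, 1 rose and 4 fell (20.8% called, against 16.6% of all tested genes), and the median was -0.01. Without control replicate 2 only 1 fell, and without irradiated replicate 2 only 2. Over all genes 709 and 901 fell in these fits, against 1100 with all libraries. Slc1a5 (ASCT2, a glutamine carrier) was at 44.2, 40.4 and 52.2 in the control and 49.6, 49.8 and 47.8 FPKM in the irradiated libraries, with overlap (0.11 ± 0.09, adjusted p = 0.436). Slc38a2 (SNAT2, induced when amino acids are scarce) was at 45.01 ± 1.51 and 46.9 ± 0.941 FPKM (0.06 ± 0.06). Slc7a5 (LAT1, which takes up leucine) was at 20.4 ± 1.74 and 22.2 ± 1.25 FPKM (0.12 ± 0.09), and its partner chain Slc3a2 (CD98) at 11.4 ± 0.558 and 12.01 ± 0.343 FPKM (0.07 ± 0.09). Slc38a1, a glutamine carrier of T cells, was at 20.98 ± 1.61 and 20.3 ± 0.770 FPKM (-0.04 ± 0.08). None of these passed. Slc7a11, the cystine carrier, was below the mean of 1 FPKM, at 1.11 ± 0.360 and 0.687 ± 0.129 FPKM, and was not tested.

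Slc15a3 and Slc15a4 encode carriers that let histidine and small peptides out of endosomes and lysosomes, and Slc15a4 is known for its part in signalling by endosomal Toll-like receptors. Slc15a3 was at 22.6, 26.2 and 22.99 in the control and 15.1, 16.04 and 19.9 FPKM in the irradiated libraries, without overlap (-0.48 ± 0.11, adjusted p = 0.0108). Of its exon bases 28.1% are shared with Tmem132a on the other strand. Slc15a4 was at 10.1, 12.7 and 10.3 FPKM against 7.84, 6.64 and 8.09 FPKM (-0.50 ± 0.12, adjusted p = 0.0157). Without control replicate 2 neither passed, at adjusted p of up to 0.0546 for Slc15a3 and 0.0818 for Slc15a4, and Slc15a4 did not pass without irradiated replicate 2 either. Both genes are expressed in plasmacytoid dendritic cells and macrophages, and the dendritic cell markers fell from a summed 779 to 818 FPKM to 380 to 392 FPKM, with Cd209d and Xcr1 at 0 in at least 1 library, and their part was not tested.

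Slc43a2 (LAT4, which lets branched-chain and aromatic amino acids pass) was at 15.3, 15.7 and 15.97 in the control and 11.8, 9.60 and 11.5 FPKM in the irradiated libraries, all lower (-0.48 ± 0.10, adjusted p = 0.00685). Slc7a7 (y+LAT1, which exports arginine and lysine and is abundant in macrophages) fell from 5.86 ± 0.908 to 3.88 ± 0.357 FPKM (-0.49 ± 0.14, adjusted p = 0.0318). That call was lost with no filter, with the replicate block, and when any control replicate or irradiated replicate 2 or 3 was left out, at adjusted p up to 0.104. Slc6a9 (GlyT1, which takes up glycine for haem synthesis) rose at low values, from 0.919, 1.08 and 0.950 to 1.83, 2.45 and 1.82 FPKM (0.61 ± 0.16, adjusted p = 0.0226). It was the 1 amino acid carrier that rose, and it passed the filter through the irradiated group only. It lost its call without any 1 control replicate or irradiated replicate 2 (adjusted p up to 0.0777), and 27.8% of its exon bases are shared with Ccdc24 on the other strand. Of 16 tested erythroid markers 7 fell (43.75%, against 10.3% of all tested genes) and 9 were not called. Their part in the rise of Slc6a9 was not tested.

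Of 33 tested genes of amino acid sensing and its stress response 2 rose and 1 fell (9.09% called, against 16.6% of all tested genes), with a median of -0.03. Asns, which makes asparagine and is a target of the amino acid response, rose from 8.92 ± 0.937 to 19.4 ± 0.575 FPKM (1.04 ± 0.10). Lamtor4, a subunit of the lysosomal platform for mTORC1, rose by 0.30 ± 0.09. Sesn3, a sestrin that restrains mTORC1, changed by -1.07 ± 0.17. Atf4, the transcription factor of that response, had a difference of 0.21 ± 0.07 and did not pass (adjusted p = 0.0604). The list was fixed with earlier results of these data known.

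Mitochondrial carriers were the most abundant family and few of them changed. Of 42 listed 34 were tested, 1 rose and 1 fell (5.88%, against 16.6% of all tested genes), and the groups did not overlap in 14.7% of those tested, against 33.6% of all tested genes. Their summed level was 873 ± 6.36 FPKM (SD, n = 3) in the control group and 873 ± 24.6 FPKM in the irradiated group. Slc25a5 (ANT2, which exchanges ADP for ATP; chromosome X, 36795651 to 36798807) had the highest level of any Slc gene, at 311, 301 and 290.0 in the control and 296, 308 and 273 FPKM in the irradiated libraries. Slc25a3, which imports the phosphate for ATP synthesis, was at 173 ± 5.76 and 172 ± 6.21 FPKM. Slc25a4 (ANT1) was at 45.5 ± 1.95 and 40.2 ± 5.77 FPKM. The values of these carriers overlapped between groups and none passed (adjusted p = 0.665, 0.936 and 0.212). Without irradiated replicate 1, 2 mitochondrial carriers rose and 3 fell, while over all genes 544 rose and 938 fell.

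Slc25a24, a calcium-regulated carrier that exchanges ATP-magnesium for phosphate (chromosome 3, 109123149 to 109168457), was at 26.2, 27.7 and 27.9 in the control and 37.7, 37.1 and 35.7 FPKM in the irradiated libraries. All irradiated values were higher (0.42 ± 0.07, adjusted p = 0.00129). Slc25a51, which brings NAD into mitochondria (chromosome 4, 45395923 to 45408766), was at 21.5, 20.5 and 20.5 FPKM against 15.7, 16.3 and 14.7 FPKM, all lower (-0.40 ± 0.08, adjusted p = 0.00545). Slc25a38, the glycine carrier that starts haem synthesis, had values of 5.48, 4.62 and 6.11 in the control and 6.71, 8.44 and 7.06 FPKM in the irradiated libraries. These did not overlap, but the difference of 0.39 ± 0.13 did not pass (adjusted p = 0.0682). Slc25a39, the glutathione carrier, was at 22.9 ± 1.61 and 21.1 ± 2.33 FPKM (-0.12 ± 0.10, adjusted p = 0.459).

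Of 19 tested genes of mitochondrial transport outside this family 3 rose, with a median of 0.03, and the share called (15.8%) was near that of all tested genes (16.6%). They were Tspo, an outer membrane protein that binds cholesterol and porphyrins (0.42 ± 0.05), Abcb10, a haem-related exporter (0.45 ± 0.11), and Sfxn5, a sideroflexin (0.54 ± 0.14). The pyruvate carrier subunits Mpc1 and Mpc2 had differences of 0.16 ± 0.15 and -0.09 ± 0.06 and did not pass (adjusted p = 0.532 and 0.381).

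**Figure D3:**
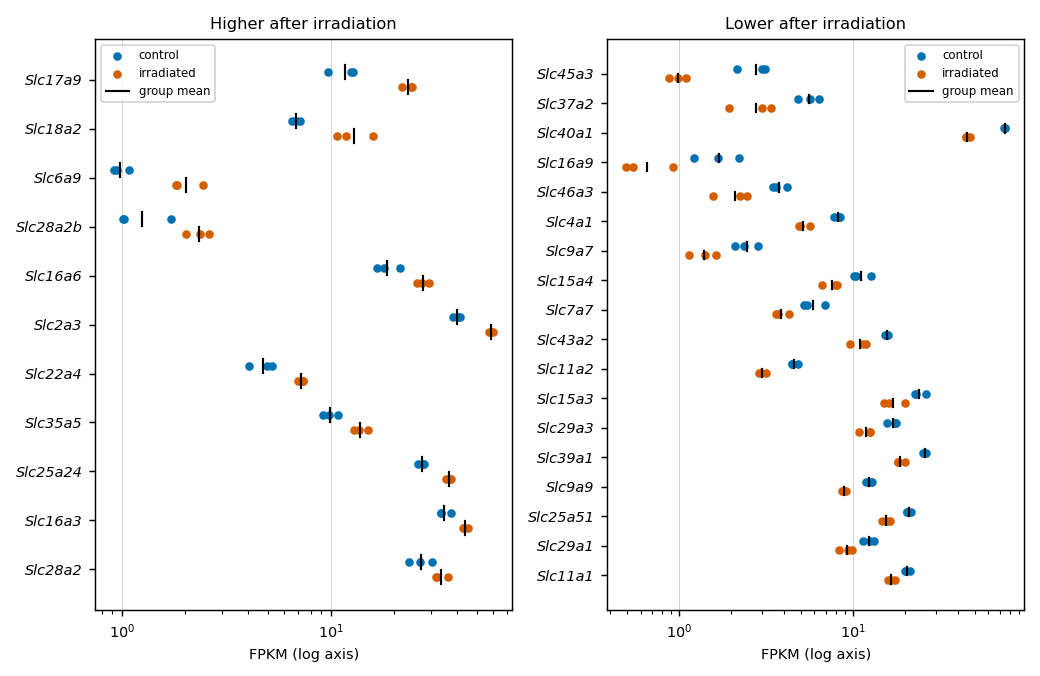
FPKM on a log x axis in each of the 6 libraries (points) for the 11 Slc genes that were higher and the 18 that were lower after irradiation, with group means as bars. In no row do control and irradiated points overlap, and levels range from under 1 FPKM (Slc16a9, Slc45a3 and Slc6a9) to 75.2 FPKM (Slc40a1).

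Among zinc carriers 1 importer fell. Of 22 listed 17 were tested, 0 rose by limma and 1 fell (also 1 at an unadjusted p under 0.05), with a median of 0.01. The share called was 5.88%, against 16.6% of all tested genes. Slc39a1 (ZIP1, a zinc importer of the plasma membrane; chromosome 3, 90248172 to 90253612) was at 26.3, 25.7 and 25.3 in the control and 18.04, 19.9 and 18.04 FPKM in the irradiated libraries. All irradiated values were lower (-0.45 ± 0.08, adjusted p = 0.00206). The most abundant member was Slc39a7 (ZIP7, which releases zinc from the endoplasmic reticulum), at 59.5 ± 3.23 and 63.8 ± 3.08 FPKM (0.10 ± 0.06, adjusted p = 0.341). Most of its exon bases (80.7%) are shared with an overlapping transcript model on the same strand. Slc30a5 (ZnT5, which loads zinc into the secretory pathway) was at 27.4, 26.1 and 27.2 FPKM against 25.8, 21.7 and 24.1 FPKM, without overlap and without passing (-0.17 ± 0.08, adjusted p = 0.193). Slc30a1 (ZnT1), the zinc exporter that metals induce through Mtf1, was at 4.30 ± 0.704 and 4.35 ± 0.809 FPKM (0.01 ± 0.15, adjusted p = 0.972).

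Of 6 tested zinc-binding and zinc-sensing genes outside the carrier families 3 rose (50% called, against 16.6% of all tested genes). Mt1, a metallothionein that buffers zinc, rose from 19.2 ± 3.42 to 33.7 ± 0.793 FPKM (0.80 ± 0.11), while Mt2 was at 3.87 ± 0.730 and 5.21 ± 2.75 FPKM and did not pass (adjusted p = 0.662). The other two were S100a8 and S100a9, which form the zinc-binding neutrophil protein calprotectin and rose by 0.63 ± 0.05 and 0.57 ± 0.05. Both are also among the 21 neutrophil and granulocyte markers, of which 16 rose, and the part of those cells was not tested.

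Iron carriers that changed were all lower. Of 10 listed 8 were tested, 0 rose by limma (of 3 at an unadjusted p under 0.05 all were lower) and 3 fell, and the median was -0.09. The share called was 37.5%, against 16.6% of all tested genes. Slc40a1 (ferroportin, the exporter of iron; chromosome 1, 45908068 to 45926523) was at 75.2, 74.9 and 73.6 in the control and 44.7, 46.965 and 44.3 FPKM in the irradiated libraries. The groups were far apart, with a log2 difference of -0.71 ± 0.06 (adjusted p = 8.09e-06), the lowest p of any Slc gene, and the call held in each of 13 alternatives, between -0.73 and -0.67. Slc11a2 (DMT1, which brings ferrous iron into the cytosol) was at 4.85, 4.44 and 4.43 FPKM against 2.98, 2.87 and 3.16 FPKM (-0.48 ± 0.12, adjusted p = 0.0233). Slc11a1 (NRAMP1, which pumps metals out of the phagosomes of macrophages and neutrophils) was at 20.2, 19.9 and 21.2 FPKM against 16.5, 15.8 and 17.3 FPKM (-0.29 ± 0.08, adjusted p = 0.0289). The call of Slc11a2 was lost without control replicate 1 or 2 or irradiated replicate 1 or 2 (adjusted p up to 0.0902), and that of Slc11a1 without any 1 library other than irradiated replicate 3 (up to 0.0853). Without any of control replicates 1 and 2 and irradiated replicates 1 and 2 only Slc40a1 of the 3 passed.

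Carriers of haem and of mitochondrial iron did not pass. Slc48a1 (HRG1, which lets haem out of phagolysosomes) was at 51.6 ± 4.73 and 53.7 ± 4.74 FPKM (0.06 ± 0.08, adjusted p = 0.694). Slc25a37 (mitoferrin 1, which feeds iron to haem synthesis in red cell precursors) was at 13.8, 15.5 and 19.3 in the control and 16.9, 18.8 and 19.8 FPKM in the irradiated libraries, with overlap (0.19 ± 0.12, adjusted p = 0.311). Slc39a8 and Slc39a14, which carry zinc, iron and manganese, were near 1 FPKM in both groups (adjusted p = 0.814 and 0.774). Slc4a1 (band 3, the anion exchanger of red cells) fell from 8.38, 8.36 and 7.74 to 4.93, 4.86 and 5.69 FPKM (-0.57 ± 0.11, adjusted p = 0.00515). Erythroid markers fell too, from a summed 1165 to 1415 FPKM to 798 to 833 FPKM with 0 of 18 at 0 in any library, and their part was not tested.

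Of 22 tested genes of iron handling outside the Slc families 3 rose and 4 fell, with a median of -0.12 (31.8% called, against 16.6% of all tested genes). Their median SE was 0.084, against 0.112 over all tested genes, so smaller differences can pass among them. The iron store genes Fth1 and Ftl1 changed by -0.49 ± 0.05 and -0.37 ± 0.04, Trf, which encodes transferrin, by -0.72 ± 0.06, and Hmox1, which frees iron from haem, by -0.85 ± 0.06. Steap4, a metalloreductase, rose by 1.40 ± 0.13, and the iron-binding neutrophil genes Lcn2 and Ltf rose by 0.55 ± 0.04 and 0.39 ± 0.04. Lcn2 and Ltf are also among the 21 neutrophil and granulocyte markers, of which 16 rose, and the part of those cells was not tested. Tfrc, the receptor that takes up transferrin, was at 27.03 ± 2.19 and 23.7 ± 1.37 FPKM and did not pass (adjusted p = 0.174). Monocyte and macrophage markers fell in 18 of 19 tested cases in the libraries in which Slc40a1, Slc11a2, Slc11a1 and Hmox1 fell, and Hmox1 is itself on that list. Their part in the falls of the iron carriers was not tested.

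**Figure D4:**
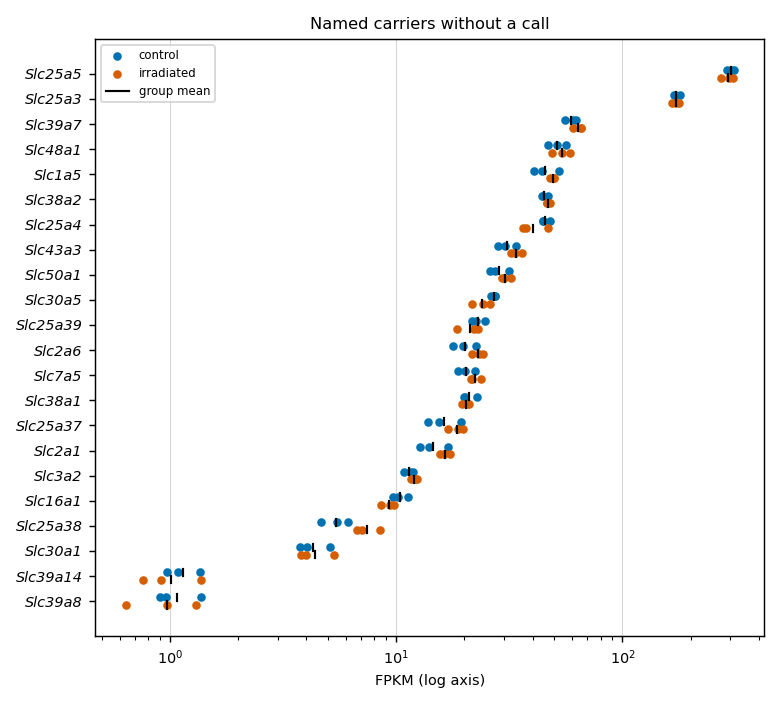
FPKM on a log x axis in each of the 6 libraries (points) for 22 named carriers that did not pass, ordered by mean level, with group means as bars. Control and irradiated points overlap in all but Slc25a38 and Slc30a5, and levels reach from 0.635 FPKM (Slc39a8) to 311 FPKM (Slc25a5).

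The largest rises of Slc genes on log2(FPKM + 1) were those of Slc17a9 and Slc18a2, which fill secretory vesicles, while in the ratio of mean FPKM Slc6a9 (2.06) stood above both and with a pseudocount of 0.1 above Slc18a2. Of 11 tested organic ion and neurotransmitter carriers 3 rose and 0 fell by limma (of 5 at an unadjusted p under 0.05 all were higher), with a median of 0.22. The share called was 27.3%, against 16.6% of all tested genes (6.29% higher). Slc17a9 (VNUT, which loads ATP into vesicles for release; chromosome 2, 180725263 to 180742280) was at 12.7, 9.68 and 12.5 in the control and 24.1, 21.9 and 24.6 FPKM in the irradiated libraries. The ratio of the means was 2.02 (0.96 ± 0.11, adjusted p = 0.000105). Slc18a2 (VMAT2, which loads histamine and other monoamines into the granules of basophils, mast cells and platelets; chromosome 19, 59260896 to 59296012) was at 7.11, 6.53 and 6.83 FPKM against 11.9, 15.97 and 10.7 FPKM (0.81 ± 0.14, adjusted p = 0.00190). All irradiated values were higher, with irradiated replicate 2 the highest. Slc22a4 (OCTN1, the carrier of the antioxidant ergothioneine) was at 4.04, 4.97 and 5.25 FPKM against 7.37, 7.38 and 6.93 FPKM (0.52 ± 0.12, adjusted p = 0.0141), and did not pass without control replicate 1 (adjusted p = 0.0618).

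Basophil and mast cell markers rose in these libraries, from a summed 2419 to 2593 FPKM to 3620 to 3705 FPKM with 0 of 9 at 0 in any library. Among them Fcer1a, a chain of the IgE receptor, rose by 0.68 ± 0.05, while Hdc, which makes histamine, had a difference of -0.04 ± 0.05 and did not pass. Of the megakaryocyte markers 1 of 5 tested rose (Itga2b, 0.75 ± 0.08) and 1 fell (Ppbp, -1.14 ± 0.21), the summed level was 48.1 to 54.5 FPKM and 76.5 to 78.2 FPKM, and Gp9 and Gp6 were at 0 in at least 1 library. The part of these cells in the rises of Slc17a9 and Slc18a2 was not tested.

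Of 24 tested nucleoside and nucleotide sugar carriers 2 rose and 2 fell, with a median of 0.03, and the share called (16.7%) was near that of all tested genes (16.6%). Slc29a3, a nucleoside carrier of lysosomes, was at 17.5, 17.6 and 15.6 in the control and 10.8, 12.5 and 12.6 FPKM in the irradiated libraries (-0.47 ± 0.10, adjusted p = 0.00666). Slc29a1 (ENT1, which equilibrates adenosine across the plasma membrane) was at 13.3, 11.4 and 12.5 FPKM against 8.34, 9.87 and 9.33 FPKM (-0.40 ± 0.10, adjusted p = 0.0245). Slc28a2 (CNT2, a sodium-coupled purine nucleoside carrier) was at 23.8, 26.6 and 30.5 FPKM against 31.7, 32.4 and 36.5 FPKM (0.31 ± 0.10, adjusted p = 0.0480). Slc28a2b, counted outside this group as its symbol pattern did not match, is a similar copy on chromosome 2 whose reads can be shared with Slc28a2. It rose from 1.25 ± 0.404 to 2.33 ± 0.289 FPKM (0.57 ± 0.17, adjusted p = 0.0408), so the value of each copy is uncertain. Slc35a5, of the nucleotide sugar carriers of the Golgi, was at 9.20, 9.78 and 10.9 FPKM against 14.99, 13.6 and 12.9 FPKM (0.44 ± 0.10, adjusted p = 0.0127). Slc43a3, which carries purine nucleobases, was at 30.7 ± 2.78 and 33.8 ± 1.91 FPKM and did not pass (adjusted p = 0.3001).

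The 3 control and 3 irradiated values stood apart for each of these called genes, which selection by a low p makes likely. The call of Slc29a3 held in each of 13 alternatives, while the other calls rested on single libraries or settings. Slc29a1 lost its call with the replicate block and without control replicate 1 or 3 or irradiated replicate 1 (adjusted p up to 0.102). Slc28a2 and Slc28a2b each lost theirs without any 1 library other than control replicate 3 (up to 0.179 and 0.148), and both with no filter. Slc28a2 lost it also with a pseudocount of 0.1 and with no trend, and Slc28a2b with the replicate block. Slc35a5 did not pass without control replicate 1 (adjusted p = 0.0581).

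Of 25 tested inorganic ion carriers 0 rose and 3 fell by limma (9 had an unadjusted p under 0.05), with a median of -0.03, and the share called (12%) was not far from the 10.3% of all tested genes that fell. Beside Slc4a1 these were Slc9a9, a sodium-proton exchanger of endosomes, at 12.8, 12.6 and 11.9 FPKM against 8.88, 8.63 and 9.15 FPKM (-0.44 ± 0.09, adjusted p = 0.00745), and Slc9a7, an exchanger of the Golgi, at 2.44 ± 0.380 and 1.39 ± 0.242 FPKM (-0.52 ± 0.16, adjusted p = 0.0430). Slc9a7 passed in only 1 of 6 fits that left out a library, the one without irradiated replicate 2 (adjusted p up to 0.131 in the others), and it did not pass with no filter, with quantile normalization or with the replicate block. Among 15 tested vitamin, choline and lipid carriers the share called was 6.67%, against 16.6% of all tested genes. Of them 0 rose and 1 fell by limma (3 had an unadjusted p under 0.05). It was Slc46a3, a lysosomal carrier, at 3.46, 4.18 and 3.60 FPKM against 2.24, 2.46 and 1.57 FPKM (-0.63 ± 0.16, adjusted p = 0.0179), which did not pass with no filter or without control replicate 2 or irradiated replicate 3 (adjusted p up to 0.0843). None of the 4 genes that carry an Slc symbol but encode no carrier passed (1 had an unadjusted p under 0.05), among them Slc9a3r1, an adaptor protein at a mean of 107.8 FPKM (adjusted p = 0.752).

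The RefSeq promoter table on GRCm38.p6 holds 21 of the 29 called Slc genes, and the 250 bases before the first listed start were searched on both strands for short motifs of factors known to act on carrier genes. The motifs were the E-box CACGTG (factors such as Myc and Tfeb), the GATA motif AGATAA, the interferon response motif (given by its name), the metal response motifs TGCACNC and TGCGCNC (Mtf1), the PU.1 motif GAGGAAGT and the antioxidant response motif TGACNNNGC. The E-box stood in 2 of 8 promoters of genes that rose and 0 of 13 of genes that fell, against 6.05% of 27025 promoters. AGATAA stood in 2 of 8 and 0 of 13, against 10.3%, and TGACNNNGC in 0 of 8 and 4 of 13, against 10.1%. The metal response motifs stood in 4 of 8 and 3 of 13, against 21.3%, while the interferon response and PU.1 motifs stood in none of these promoters (3.04% and 2.44% of all). With so few promoters these are descriptions, and a match is not evidence of binding.

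Shown are the promoters of 3 genes that rose and 2 that fell, chosen because they hold E-box, GATA or antioxidant response letters. Each is the 250 bases before the RefSeq start, 5′ to 3′ on the gene's strand, with every match to any of the motifs in capitals. They are Slc35a5 (chr16:45158674-45158923, minus strand), Slc22a4 (chr11:54028105-54028354, minus strand), Slc18a2 (chr19:59260628-59260877, plus strand), Slc39a1 (chr3:90247942-90248191, plus strand) and Slc46a3 (chr5:147894816-147895065, minus strand).
Slc35a5: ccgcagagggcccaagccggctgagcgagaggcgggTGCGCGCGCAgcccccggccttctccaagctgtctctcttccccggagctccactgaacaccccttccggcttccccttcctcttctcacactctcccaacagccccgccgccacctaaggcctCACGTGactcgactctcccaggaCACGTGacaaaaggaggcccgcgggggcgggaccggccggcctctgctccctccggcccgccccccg
Slc22a4: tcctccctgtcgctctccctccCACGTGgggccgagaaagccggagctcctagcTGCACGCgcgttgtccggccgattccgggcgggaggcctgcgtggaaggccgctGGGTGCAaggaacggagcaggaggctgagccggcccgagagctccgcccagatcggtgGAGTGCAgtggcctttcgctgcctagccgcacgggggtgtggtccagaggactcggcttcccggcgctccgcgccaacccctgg
Slc18a2: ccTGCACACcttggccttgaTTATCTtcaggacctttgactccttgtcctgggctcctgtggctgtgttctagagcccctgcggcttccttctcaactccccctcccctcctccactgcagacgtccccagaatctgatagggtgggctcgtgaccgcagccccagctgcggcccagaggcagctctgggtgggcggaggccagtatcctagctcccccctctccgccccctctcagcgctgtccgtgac
Slc39a1: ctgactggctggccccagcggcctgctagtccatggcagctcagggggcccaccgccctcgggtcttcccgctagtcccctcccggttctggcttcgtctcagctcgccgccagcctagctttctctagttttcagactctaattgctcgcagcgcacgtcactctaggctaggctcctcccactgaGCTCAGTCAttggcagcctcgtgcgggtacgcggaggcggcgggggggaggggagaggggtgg
Slc46a3: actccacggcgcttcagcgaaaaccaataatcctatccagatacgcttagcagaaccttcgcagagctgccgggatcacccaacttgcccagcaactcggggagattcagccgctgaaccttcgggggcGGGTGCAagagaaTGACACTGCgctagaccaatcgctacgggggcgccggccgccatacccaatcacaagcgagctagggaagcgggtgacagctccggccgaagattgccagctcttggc
In Slc35a5 the E-boxes begin 90 and 67 bases before the start, and its pair of metal response matches overlap each other. In Slc22a4 the E-box begins 228 bases before the start, followed by 3 metal response matches. In Slc18a2 the GATA match, read on the other strand, begins 230 bases before the start. In Slc39a1 and Slc46a3 the antioxidant response letters begin 63 and 108 bases before it.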

How the data were processed

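RNA-seq was done on 3 control and 3 irradiated samples of bone marrow cells sorted with a Treg gate. Per the labels' protocols the kit was for stranded mRNA. Per the submitters' processing notes the tools were fastp, HISAT2 and StringTie, with the builds GRCm38 and mm10, and their versions, the annotation and the strand setting are not stated there. Each deposited file holds 1 number per gene, read as FPKM because StringTie reports it and column totals differ, since the file headers do not name the unit. Depth relative to control replicate 1 was estimated from genes below 0.1 FPKM, as the factor that turned most of their ratios into ratios of integers up to 6, within 0.001.

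Samples were grouped by their labels. Genes averaging 1 FPKM or more were fitted as log2(FPKM + 1) by limma (version 3.58.1, R 4.3.3) with a trended prior. Tests were two-sided, and Benjamini-Hochberg adjustment ran over all fitted genes with a threshold of 0.05. The procedure was tested on simulated data. Named genes were the 12 largest called changes per direction without overlap and with a higher mean of at least 5 FPKM, up to 4 called members with the lowest p in each substrate group, the 2 most abundant of each of the glucose, amino acid, mitochondrial, zinc and iron groups, and a set list of carriers. The members and lists were chosen with earlier results of these data known. Coordinates are from GENCODE M21 on GRCm38, which holds 285 of the 289 symbols. Tables and plots were made in Python 3.11.15 (matplotlib 3.10.9, numpy 2.4.6, pandas 2.3.3). Alternatives were another pseudocount, no filter, a stricter filter, other scalings, no trend, each library left out in turn and a replicate block.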

Additional observations from a re-analysis of the deposited data

How the results depend on the processing

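The counts were recomputed under 13 alternatives, and 15 of the 29 called Slc genes passed in every alternative in which they were tested, while none of the 29 changed sign. Quantile normalization gave 17 Slc genes higher (836 over all genes), and a minimum mean of 5 FPKM gave 11 lower (893 over all genes). With that filter 0 glucose and hexose carriers were lower and 0 amino acid carriers higher, since it leaves fewer genes tested. Mitochondrial carriers called higher numbered 2 with median-of-ratios scaling, 3 with quantile normalization and 2 with the replicate block. In the same order 812, 836 and 558 of all genes were called higher, against 671 in the fit reported above. The median log2 difference over all genes was 0.006 with median-of-ratios scaling and 0.015 with quantile normalization, against -0.02. With no filter on low values 1 zinc carrier was higher. The cause was not tested.

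Leaving out 1 library at a time gave 414 to 684 genes higher and 709 to 968 lower, with the lowest counts without control replicate 2. Over Slc genes it gave 6 to 13 higher and 10 to 17 lower. It gave 0 to 1 amino acid carriers higher and 1 to 4 lower, 1 to 2 mitochondrial carriers higher and 1 to 3 lower, and 1 to 3 iron carriers lower. Of the 29 calls 18 to 23 were kept. The replicate block gave 11 Slc genes higher and 14 lower (558 and 948 over all genes) and kept 24 calls. Deviations of same-numbered libraries correlated at 0.01, -0.04 and -0.02, so no deviation shared by number was seen. With 3 libraries per group this cannot show whether same-numbered libraries were handled together.

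Some differences that did not pass changed sign. Median-of-ratios scaling gave 0.0249 for Slc25a3, and quantile normalization gave 0.0395 for Slc39a14 and 0.0773 for Slc39a8. Leaving out 1 library gave -0.0341 to 0.0184 for Slc25a3, -0.0787 to 0.0068 for Slc25a5, -0.0753 to 0.0189 for Slc38a1, -0.143 to 0.0446 for Slc39a8, -0.109 to 0.117 for Slc30a1 and -0.0066 to 0.123 for Slc48a1. Depth is unknown in absolute terms, so genes near 1 FPKM carry counting error of unknown size.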

Other observations

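Of the 109 Slc genes under the mean of 1 FPKM, 2 were higher and 3 lower in the fit with no filter on low values (4.59%, against 9.14% of the 15483 genes in that fit). They are named here after their values were seen. Slc1a3 (GLAST, a glutamate and aspartate carrier) was at 1.63, 0.967 and 1.32 FPKM in control and 0.160, 0.187 and 0.233 FPKM in irradiated libraries, with a limma log2 difference of -0.94 ± 0.12 (SE, n = 3 and 3, adjusted p = 0.00396). Slc27a6, a fatty acid carrier family member, was at 1.2002, 1.08 and 0.734 FPKM against 0.313, 0.144 and 0.354 FPKM (-0.66 ± 0.12, limma adjusted p = 0.0177). Slc9a5, a sodium-proton exchanger, was at 0.520, 0.432 and 0.471 FPKM against 1.82, 1.17 and 1.04 FPKM (0.66 ± 0.13, limma adjusted p = 0.0290). Slc39a2 (ZIP2, a zinc importer) was at 0.0202, 0.0614 and 0.0392 FPKM against 0.35002, 0.218 and 0.321 FPKM (0.32 ± 0.06, limma adjusted p = 0.0178). Slc9b2, a sodium-proton exchanger family member, had a difference of -0.33 ± 0.07 (limma adjusted p = 0.0367). In these 5 genes, picked by a low p, the groups did not overlap, at levels where few reads stand behind each value.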
